A study of Mus musculus with 2 samples.

Results

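The immunoglobulin variable (V) gene segments are the entries of the mouse gene table that GENCODE M21 classes as IG_V_gene, with symbols that begin with Ighv for the heavy chain, Igkv for the kappa light chain and Iglv for the lambda light chain. They numbered 203 of 38320 entries, with 104 heavy, 96 kappa and 3 lambda segments, and the rule that selects them uses the annotation and no measured value, although the class was picked with earlier results of these data known. RNA-seq was done on liver cells of C57/Bl6 male mice after 5 weeks of carbon tetrachloride (CCl4), a solvent that injures hepatocytes and causes liver fibrosis. The cells were those that stuck to a culture dish after a short incubation and are labelled stromal. The Foxf1fl/fl library came from mice with both Foxf1 alleles flanked by loxP sites, and the αSMACreER;Foxf1-/- library from αSMACreER;Foxf1 fl/fl mice, their littermates labelled knockout, which also carried CreER, a recombinase switched on by tamoxifen, under the smooth muscle actin (αSMA) promoter. According to the study's methods, tamoxifen was injected repeatedly during the CCl4 course to activate the knockout. Samples were pooled into 1 library per genotype, so no value has a replicate and no p-value was computed. The transgene acts in αSMA-positive cells, and B cells are not the cells it targets. Foxf1 itself was not analysed here.

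V segments are the largest building blocks of an antibody's antigen-binding domain. In each developing B cell 1 V segment of a locus is joined to a J segment, with a D segment between them in the heavy chain, and the joined gene is transcribed, little in a resting B cell and very strongly in an antibody-secreting plasma cell. A clone of B cells carries the same joined genes, so many transcripts of 1 segment can come from 1 large clone, from many clones that chose the same segment or from a few plasma cells. The joint itself, which tells clones apart, was not analysed here, and a segment's level is a view of segment use only.

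The sequences show how well short reads can separate the segments. The V exons of the lambda locus are given because the locus has only 3 members in the table and the order of its members differed between the libraries. They are the first 300 bases of each V exon, 5′ to 3′, from the GENCODE M21 transcripts of GRCm38, at chr16:19085022-19085321 for Iglv1, chr16:19260406-19260705 for Iglv2 and chr16:19241231-19241530 for Iglv3, all on the minus strand. Capitals mark bases that are substituted or inserted relative to Iglv1.
Iglv1: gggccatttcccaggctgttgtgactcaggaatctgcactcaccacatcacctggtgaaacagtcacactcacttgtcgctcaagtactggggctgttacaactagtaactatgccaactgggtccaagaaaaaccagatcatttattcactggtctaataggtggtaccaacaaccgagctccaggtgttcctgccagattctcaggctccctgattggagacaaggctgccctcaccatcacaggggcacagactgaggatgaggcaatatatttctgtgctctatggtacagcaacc
Iglv2: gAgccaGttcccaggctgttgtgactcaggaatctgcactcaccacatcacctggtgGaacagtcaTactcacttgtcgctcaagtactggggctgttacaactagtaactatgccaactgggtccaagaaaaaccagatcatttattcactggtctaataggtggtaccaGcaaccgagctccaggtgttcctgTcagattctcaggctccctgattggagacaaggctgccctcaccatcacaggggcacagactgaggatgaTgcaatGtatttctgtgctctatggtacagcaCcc
Iglv3: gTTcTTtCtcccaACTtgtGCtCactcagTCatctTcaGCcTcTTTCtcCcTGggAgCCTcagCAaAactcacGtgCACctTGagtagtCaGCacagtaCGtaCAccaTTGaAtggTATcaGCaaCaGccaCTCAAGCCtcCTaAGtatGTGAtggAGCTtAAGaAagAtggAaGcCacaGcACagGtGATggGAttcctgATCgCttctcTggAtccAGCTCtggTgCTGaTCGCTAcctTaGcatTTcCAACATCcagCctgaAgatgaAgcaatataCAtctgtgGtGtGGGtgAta
Iglv2 differed from Iglv1 at 9 bases of its exon, and their coding sequences were 96.9% identical. Iglv3 had 135 capitals in the stretch shown and was 57.8% identical to Iglv1 over the shorter coding sequence. Of the 75-base windows, the length of a read here, 89.2% were unique to 1 member in Iglv1 and in Iglv2, against 100% in Iglv3.

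The last 60 bases of the coding sequence are given for the segments that led the heavy and kappa loci and for some whose level differed most. This end is joined to D or J and opens the third complementarity-determining region. Capitals mark the in-frame cysteine codon, found within the last 40 bases, that closes the conserved core of the V domain.
Ighv1-80: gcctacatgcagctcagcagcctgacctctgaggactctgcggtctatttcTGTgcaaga
Ighv1-82: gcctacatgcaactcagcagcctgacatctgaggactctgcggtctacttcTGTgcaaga
Ighv1-26: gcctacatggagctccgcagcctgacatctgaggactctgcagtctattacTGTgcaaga
Ighv1-64: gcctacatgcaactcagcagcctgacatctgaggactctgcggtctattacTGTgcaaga
Ighv5-4: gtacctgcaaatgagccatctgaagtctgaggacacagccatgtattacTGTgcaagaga
Ighv1-59: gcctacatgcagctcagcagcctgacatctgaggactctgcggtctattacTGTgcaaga
Igkv1-110: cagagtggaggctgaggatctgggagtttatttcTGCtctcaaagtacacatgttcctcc
Igkv1-117: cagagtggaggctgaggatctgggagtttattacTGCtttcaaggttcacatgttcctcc
Igkv1-135: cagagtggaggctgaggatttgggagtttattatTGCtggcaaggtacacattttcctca
Igkv10-96: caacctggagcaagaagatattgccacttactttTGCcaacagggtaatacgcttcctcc
Igkv4-55: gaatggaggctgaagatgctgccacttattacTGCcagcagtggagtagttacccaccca
Igkv4-58: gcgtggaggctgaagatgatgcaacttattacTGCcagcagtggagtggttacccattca
Of the 203 members, 202 had this codon in that window. The 4 leading Ighv1 ends shown share most of their letters, and so do those of Igkv1-110 and Igkv1-117, which were 97.2% identical over the coding sequence. Among all members, 40 had another member at least 97% identical, 81 had no 75-base window in common with another member, and 6 had fewer than 50% of their windows to themselves. Levels of near-identical segments depend on how reads that fit both were shared out.

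The values are FPKM, fragment counts divided by transcript length and by library size, which can be compared between segments of different length. Reads behind a value were estimated from the lowest values above 0, which lay around 0.549 FPKM in the Foxf1fl/fl library (8 members) and 0.498 FPKM in the αSMACreER;Foxf1-/- library (19 members) for a segment of the median coding length, 351 bases, and were taken as 1 read. Only 31.6% and 38.2% of values under 2 FPKM were then within 0.1 of a whole read, so read numbers and the 95% intervals made from them are approximate and cover counting error only. Before ratios were taken, the αSMACreER;Foxf1-/- values were divided by 1.02, the median ratio of 11871 genes.

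Summed V transcripts were lower in the αSMACreER;Foxf1-/- library at each locus, for lambda through Iglv1. The 203 members summed to 1794 FPKM in Foxf1fl/fl and 722 FPKM in αSMACreER;Foxf1-/-, about 3127 and 1402 estimated reads, a sum 2.53-fold lower (counting interval 2.37 to 2.70). Kappa segments held most of the signal and went from 1152 to 405 FPKM, 2.89-fold lower (2.66 to 3.15). Heavy segments went from 526 to 255 FPKM, 2.10-fold lower (1.88 to 2.35), so that the intervals of the kappa and heavy ratios did not overlap. Lambda segments went from 116 to 61.8 FPKM, 1.92-fold lower (1.53 to 2.41). Without Iglv1 the log2 ratio of lambda was 0.28, on the higher side through Iglv3 alone and without a counting interval. In these mixed cells fewer B-lineage cells and less antibody RNA per cell cannot be told apart.

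Most members were present in both libraries. Values above 0 were listed for 156 members in Foxf1fl/fl and 152 in αSMACreER;Foxf1-/-, of which 138 were the same, and 33 were listed at 0 in both. These counts were not taken at equal depth, since Foxf1fl/fl had more estimated V reads. The 18 found only in Foxf1fl/fl ranged from 0.539 to 9.68 FPKM with a median of 1.27, and the 14 found only in αSMACreER;Foxf1-/- ranged from 0.473 to 7.55 FPKM with a median of 1.53. Only 5 members of each of these groups lay above the 3 reads that a count of 0 allows, so the remaining ones were not separable from 0 at this depth. Genes found in 1 library only were not counted over the whole table, so the 18 and 14 have no background beside them.

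Segment by segment, 146 members had a mean of at least 1 FPKM, and 104 of them were at least 1.5-fold lower in αSMACreER;Foxf1-/- on the scale of log2(FPKM + 0.1), while 17 were at least 1.5-fold higher and 25 lay between. Of all 12670 genes that passed the same filter, 13.2% were lower and 12.8% were higher by that fold. Short transcripts spread more widely, and of 204 genes outside the immunoglobulin classes with transcripts as short as these (294 to 501 bases), 31.4% were lower and 22.5% were higher. The median log2 change was -1.24 over the members, 0.00 over all genes and -0.21 over the short genes. Among 138 members above 0 in both libraries, the counting interval of the ratio lay below 0 for 54 and above 0 for 3, Iglv3, Ighv5-4 and Ighv5-6. The same count was not made over all genes or the short genes, so these numbers have no background beside them. For members above 0 in both libraries, the pseudocount of 0.1 FPKM shrank the change of low segments. For members listed at 0 in 1 library it set the size of the change, which can exceed what the reads establish. Ighv11-2 had a log2 change of 5.00 but was only known to be at least 1.91-fold higher. Such members are among the 17 and the 104.

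**Figure D1:**
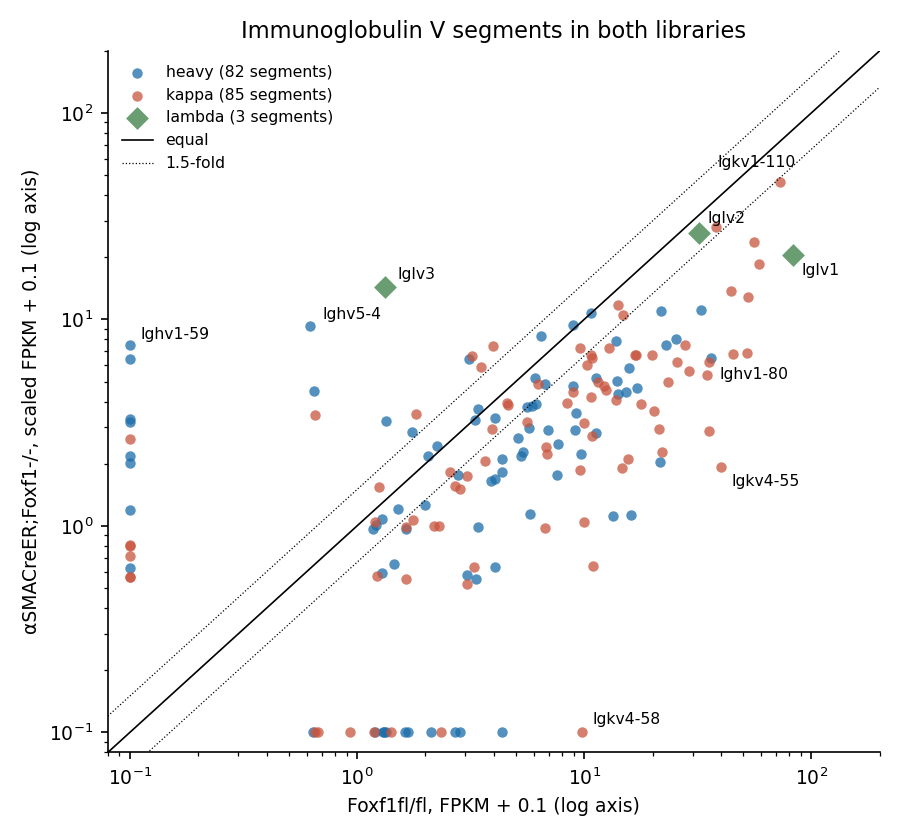
FPKM + 0.1 of each V segment in Foxf1fl/fl (x) against scaled FPKM + 0.1 in αSMACreER;Foxf1-/- (y), both on log axes, for the 170 members above 0 in at least 1 library; each point is 1 segment in 1 library per genotype. Most points lie under the solid line of equality and the dotted 1.5-fold lines, and Iglv3, Ighv5-4 and Ighv1-59 are among the few above.

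In the heavy locus, on chromosome 12 between 113578504 and 116000461 of GRCm38, no segment dominated either library. Ighv1-80 led in Foxf1fl/fl with 36.0 FPKM, 6.83% of the locus (Wilson 95% interval 5.36% to 8.72%), and stood 11th in αSMACreER;Foxf1-/- with 6.49 FPKM, a log2 ratio of -2.50 (-3.48 to -1.62). By FPKM, Ighv1-82 was the first segment of the αSMACreER;Foxf1-/- library, with 11.2 FPKM there, 4.39% of the locus (2.87% to 6.58%). It had 32.4 FPKM in Foxf1fl/fl. Its short entry of 294 bases held about 14.0 estimated reads in αSMACreER;Foxf1-/-, fewer than the 22.4 of Ighv1-64. The lead of Ighv1-82 thus rests on the division by length. Wilson intervals here treat the FPKM share as a share of the estimated reads of the locus. Ighv1-64 had 21.7 and 11.1 FPKM, and Ighv1-26 had 25.2 and 8.09 FPKM. Ighv1-22 had 22.8 and 7.57 FPKM. All of these belong to Ighv1, the largest mouse heavy chain family, once called J558.

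Some leaders of the αSMACreER;Foxf1-/- library had values close to each other in both libraries, with wide intervals. Ighv9-3 had 10.6 FPKM in Foxf1fl/fl and 10.8 FPKM in αSMACreER;Foxf1-/-, a log2 ratio of 0.00 (-0.95 to 0.97), and its rank in the locus went from 17 to 3. Ighv6-3 had 8.85 and 9.48 FPKM, a log2 ratio of 0.07 (-0.93 to 1.10). Ighv5-4, by contrast, had 0.522 FPKM in Foxf1fl/fl, about 1 read, and 9.39 FPKM in αSMACreER;Foxf1-/-, about 19.1 reads, a log2 ratio of 4.14 with the wide interval of 1.49 to 9.52. Its near neighbour Ighv5-6, 95.5% identical, had 0.545 and 4.50 FPKM.

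The spread over heavy segments was broad in both libraries. The first 5 segments held 26.2% of the locus in Foxf1fl/fl and 20.4% in αSMACreER;Foxf1-/-, and 13 and 17 segments were needed to reach 50%. The effective number of segments, the exponential of the Shannon entropy of their shares, was 48.0 and 53.9 of 104. It was not computed at equal depth, and Foxf1fl/fl had more estimated reads. Thinned to 480 reads, Foxf1fl/fl would be expected to show 69.3 heavy segments with a read, against 71 in αSMACreER;Foxf1-/-. The lists of the first 5 shared 2 segments, Ighv1-64 and Ighv1-82, and the lists of the first 20 shared 11. Across the 104 heavy segments the 2 libraries' FPKM had a Spearman rho of 0.67, a description across genes that share libraries, not a test. The 104 include 22 listed at 0 in both libraries, and over the 63 above 0 in both rho was 0.54.

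**Figure D2:**
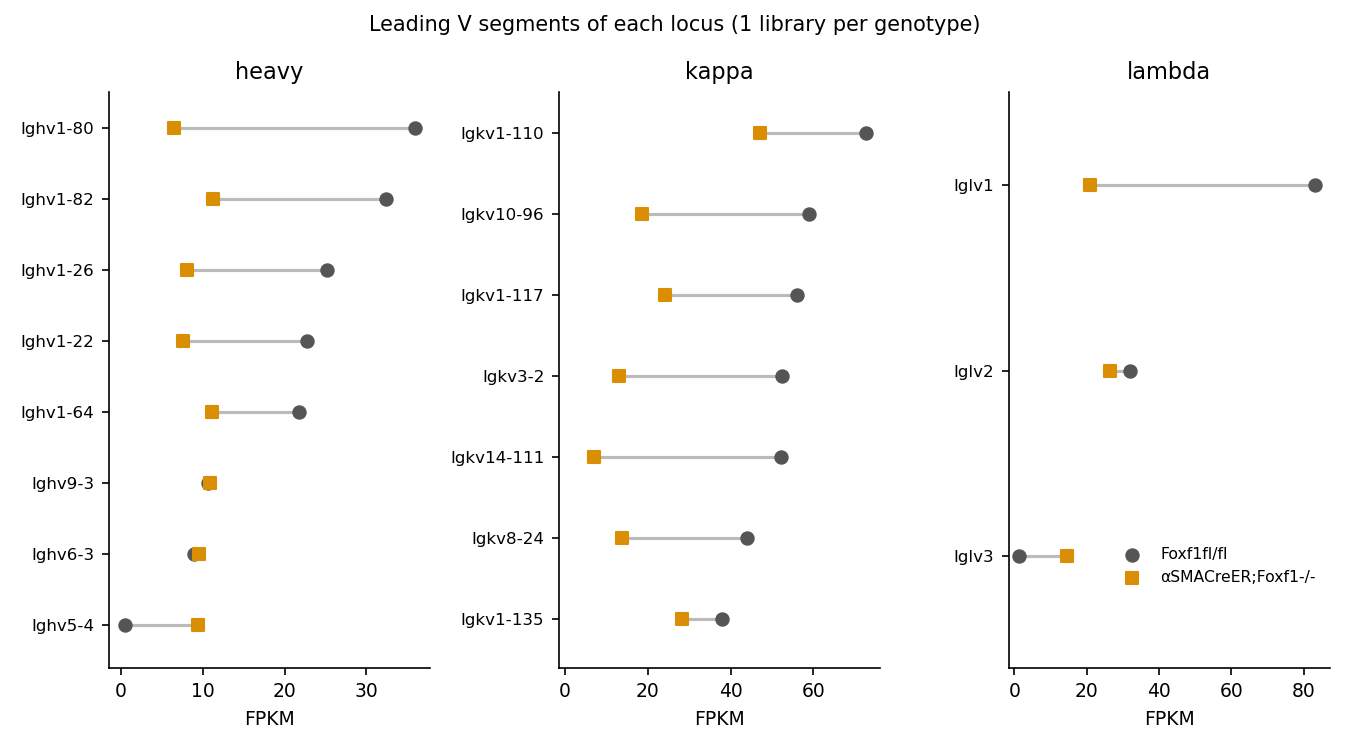
FPKM of the segments that ranked in the first 5 of their locus in either library (all 3 for lambda), with a grey circle for Foxf1fl/fl and an orange square for αSMACreER;Foxf1-/- and 1 library each. Orange lies to the left for most, whereas Iglv3 and Ighv5-4 have it far to the right and Ighv9-3 has both symbols together.

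In the kappa locus, on chromosome 6 between 67555636 and 70704177, Igkv1-110 led both libraries. It had 72.8 FPKM in Foxf1fl/fl, 6.32% of the locus (5.35% to 7.47%), and 47.2 FPKM in αSMACreER;Foxf1-/-, 11.6% of the locus (9.54% to 14.0%). Its level was lower by a log2 ratio of -0.65 (-1.04 to -0.27), less than the locus sum at -1.53 (-1.65 to -1.41), so its share was larger. Igkv1-117 had 56.1 and 24.1 FPKM. Igkv1-135 had 38.0 and 28.3 FPKM, a log2 ratio of -0.45 (-0.97 to 0.06), and went from rank 9 to rank 2. The 3 belong to family Igkv1, which held 15.2% of the locus in Foxf1fl/fl and 26.1% in αSMACreER;Foxf1-/-. Merging Igkv1-110 with Igkv1-117, its near-identical relative, gave 11.2% and 17.6% for the pair.

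Other leading kappa segments were lower by more. Igkv10-96 had 58.9 and 18.7 FPKM, and Igkv3-2 had 52.5 and 13.0 FPKM. Igkv8-24 had 44.1 and 13.8 FPKM. Igkv14-111 had 52.1 and 6.90 FPKM, a log2 ratio of -2.94 (-3.87 to -2.13). Igkv4-55, picked out after its values were seen, had 39.8 FPKM in Foxf1fl/fl and 1.86 FPKM in αSMACreER;Foxf1-/-, a log2 ratio of -4.44 (-6.36 to -3.03), although only 67.3% of its windows are its own. The first 5 kappa segments held 25.4% and 32.6% of the locus, 13 segments made up 50% in each library, and the effective number was 47.7 and 46.3 of 96. Thinned to 797 reads, Foxf1fl/fl would be expected to show 72.0 kappa segments with a read, against 78 in αSMACreER;Foxf1-/-. The lists of the first 5 shared 3 segments, those of the first 20 shared 10, and rho across the 96 segments was 0.80. Over the 72 kappa segments above 0 in both libraries rho was 0.66.

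The lambda locus, on chromosome 16 between 19085017 and 19260844, changed its order. Iglv1, the most used lambda segment of laboratory mice, had 83.1 FPKM in Foxf1fl/fl, the highest value of any member there, and 20.9 FPKM in αSMACreER;Foxf1-/-, a log2 ratio of -2.02 (-2.55 to -1.52). Iglv2 had 31.9 and 26.5 FPKM, a log2 ratio of -0.30 (-0.86 to 0.26). Iglv3, also called Vλx and printed above as the divergent exon, had 1.23 FPKM in Foxf1fl/fl, about 2.47 reads, and 14.5 FPKM in αSMACreER;Foxf1-/-, about 31.9 reads, a log2 ratio of 3.53 (1.56 to 6.63). Iglv1 thus held 71.5% of lambda in Foxf1fl/fl (65.3% to 77.3%) and 33.8% in αSMACreER;Foxf1-/-, where Iglv2 led with 42.8% (34.3% to 51.2%) and Iglv3 had 23.4%. The lower lambda sum rested on Iglv1, which was left out as the member with the highest FPKM in Foxf1fl/fl. Without it, Iglv2 and Iglv3 together had a log2 ratio of 0.28, for which no counting interval was made. Iglv2 itself was lower, and only Iglv3 was higher.

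The lambda constant gene in the table was not lower. Iglc2, the constant gene that Iglv2 and Iglv3 usually join, had 34.0 FPKM in Foxf1fl/fl and 39.0 FPKM in αSMACreER;Foxf1-/-, beside 33.2 and 40.9 FPKM for Iglv2 and Iglv3 summed. Iglc1 and Iglc3, the usual partners of Iglv1, were not analysed here. Kappa V segments summed to 9.91 times the lambda V segments in Foxf1fl/fl and to 6.56 times in αSMACreER;Foxf1-/-.

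The 5 members with the largest rise on the log2(FPKM + 0.1) scale were all listed at 0 in Foxf1fl/fl. Ighv1-59 had 7.55 FPKM in αSMACreER;Foxf1-/-, about 15.2 reads and at least 4.50-fold higher than the 3-read limit of the Foxf1fl/fl library, and Ighv14-3 had 6.43 FPKM, at least 3.83-fold higher. Ighv1-47 had 3.25 FPKM and Ighv11-2 had 3.16 FPKM, at least 1.21-fold and 1.91-fold higher. Igkv6-13, with 2.57 FPKM and about 2.99 reads, was at the limit and has no fold. Ighv11-2 is known from B-1 cells that bind phosphatidylcholine, where it pairs with Igkv14-126. That kappa segment, named after its values were seen, had 10.7 and 6.74 FPKM, and Ighv11-2 is 98.9% identical to Ighv11-1, which had 1.10 FPKM in Foxf1fl/fl and 0 in αSMACreER;Foxf1-/-. Reads of the pair are therefore hard to assign to one or the other.

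The 5 members with the largest fall on that scale were listed at 0 in αSMACreER;Foxf1-/-. Igkv4-58 had 9.68 FPKM in Foxf1fl/fl, about 10.8 reads and at least 4.04-fold above the 3-read limit of the other library. Ighv1-5 had 4.23 FPKM, Ighv1-58 had 2.73 FPKM and Igkv3-1 had 2.24 FPKM, at least 1.80-fold, 1.86-fold and 1.61-fold lower in αSMACreER;Foxf1-/-. Ighv1-16 had 2.61 FPKM, about 2.97 reads, too few for a fold. The entry of Ighv1-16 and those of 4 other members (Ighv6-7, Ighv13-2, Igkv13-85 and Igkv4-51) lie at places where GENCODE M21 has another segment, Ighv1-14 in the case of Ighv1-16, so these 5 names are uncertain. Ighv6-7 had 1.58 and 0 FPKM, and the last 3 were at 0 in both.

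Families of related segments, named by the first number of the symbol, were mostly lower together. In the kappa locus 17 of 18 families had reads in both libraries, 16 of these were at least 1.5-fold lower by summed FPKM, none was higher by that fold, and the counting interval lay below 0 for 14. Igkv12 went from 99.9 to 16.2 FPKM, a log2 ratio of -2.65 (-3.24 to -2.10), and Igkv8 from 178 to 46.0 FPKM. Igkv4, the largest with 26 members, went from 196 to 56.9 FPKM. Igkv1, at -0.75, and Igkv2, at -0.26 (-0.98 to 0.46), were the least changed families of more than 1 member.

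Heavy families were less alike. Of 16, 12 had reads in both libraries, 7 were at least 1.5-fold lower and 2 were at least 1.5-fold higher, and no interval lay wholly above 0. Ighv1, with 49 members, went from 337 to 133 FPKM, a log2 ratio of -1.37 (-1.59 to -1.15), and from 64.2% to 52.3% of the locus. Ighv5, with 9 members, had 22.7 and 21.8 FPKM, a log2 ratio of -0.08 (-0.73 to 0.57), so that its share went from 4.31% to 8.55%. Ighv14 went from 4.60 to 9.66 FPKM, with an interval of -0.21 to 2.44 that includes 0.

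**Figure D3:**
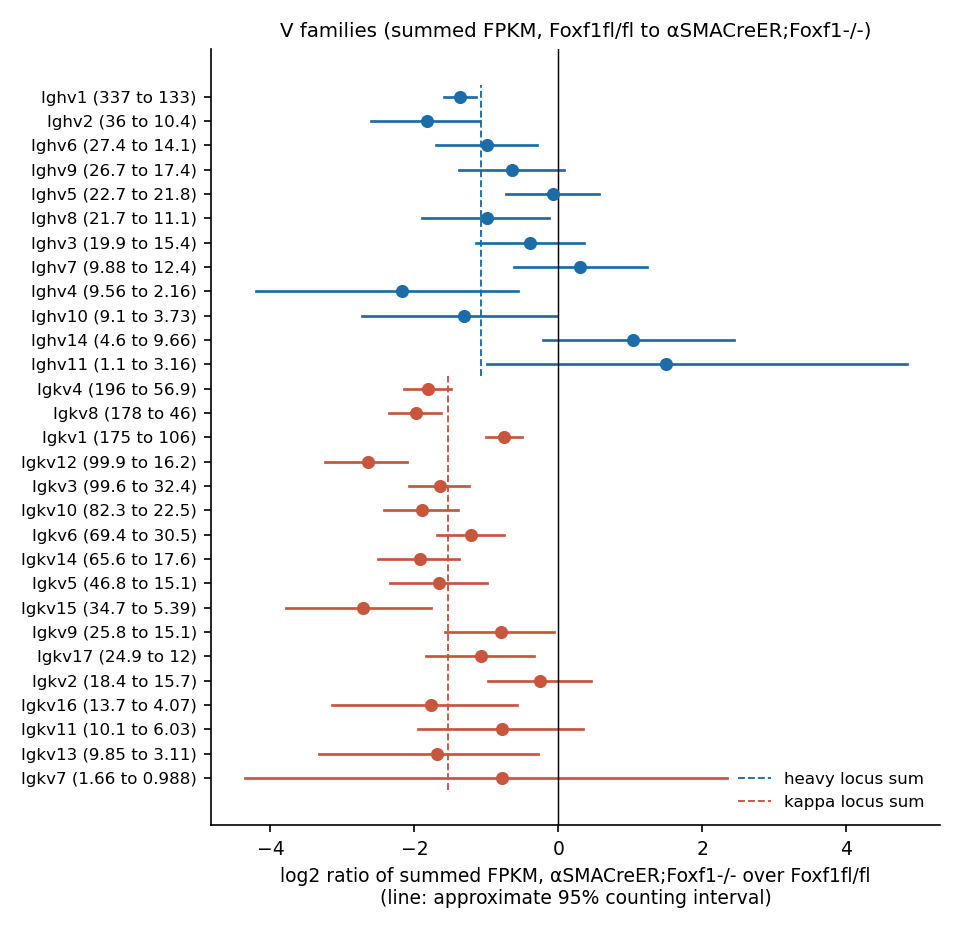
Log2 ratio of summed FPKM per V family, αSMACreER;Foxf1-/- over Foxf1fl/fl (points), with approximate 95% counting intervals (lines) for the 12 heavy (blue) and 17 kappa (red) families with reads in both libraries; labels give the summed FPKM in each library and dashed lines the locus sums. Nearly all kappa families lie left of 0, and Ighv5, Ighv7, Ighv14 and Ighv11 are among the heavy families whose intervals include 0.

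Position in the locus was described by cutting each locus into a J-proximal, a middle and a J-distal part with nearly equal numbers of segments. In the heavy locus the 35 J-proximal segments went from 111 to 77.0 FPKM, a log2 ratio of -0.55 (-0.86 to -0.24), and the 34 J-distal segments, all of them Ighv1 or Ighv8, from 238 to 93.0 FPKM, -1.38 (-1.65 to -1.11). The J-proximal part held less of the locus than the J-distal part in both libraries, and the J-distal share went from 45.2% to 36.4%. In the kappa locus the order differed, with -1.69 (-1.92 to -1.46) in the J-proximal, -2.00 (-2.27 to -1.73) in the middle and -1.20 (-1.37 to -1.03) in the J-distal part, which holds Igkv1-110, Igkv1-117 and Igkv1-135. Family and position go together in both loci and cannot be told apart here.

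**Figure D4:**
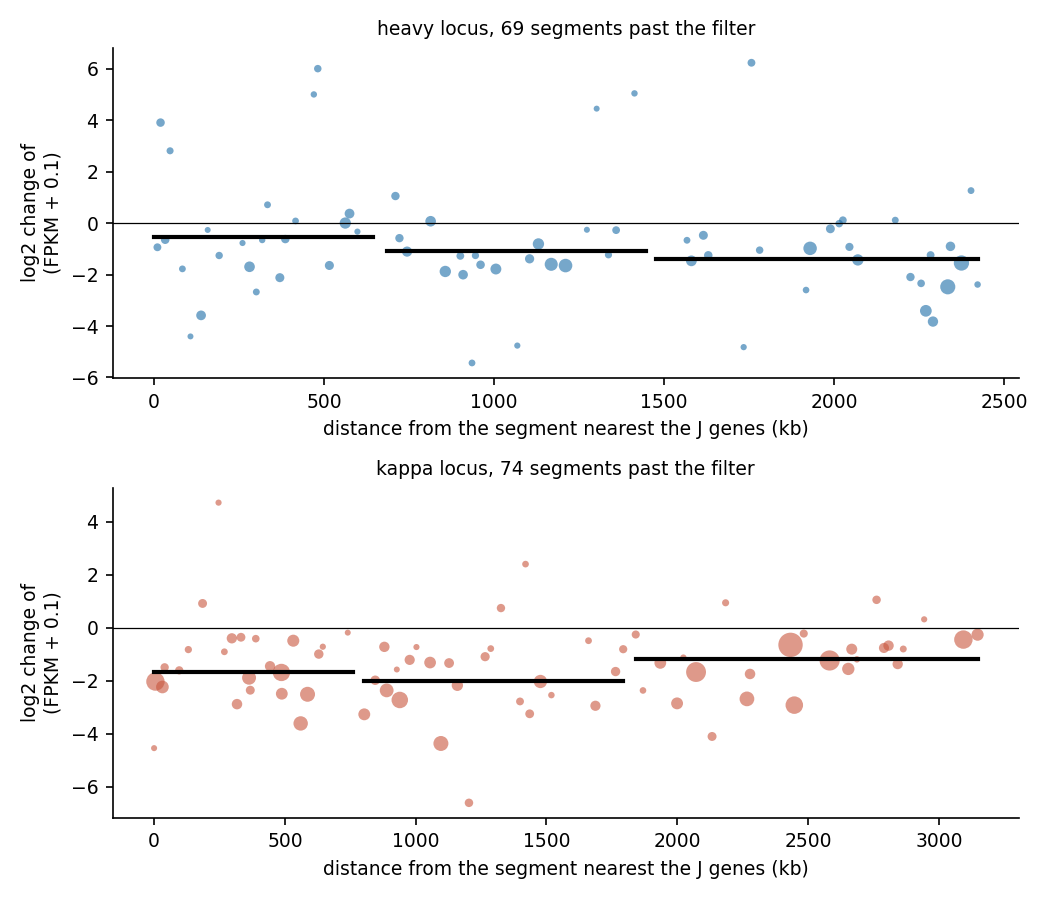
Log2 change of FPKM + 0.1 (y) against distance in kb from the segment nearest the J genes (x) for the 69 heavy (upper) and 74 kappa (lower) segments past the filter; point area grows with mean FPKM and black bars give the log2 ratio of summed FPKM over all segments of each part of the locus. The bars step down from -0.55 to -1.38 along the heavy locus, and the J-distal kappa bar is the highest of that locus at -1.20.

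Constant genes, which encode the part of the antibody that sets its class, were read beside the V segments because they sit on the same transcripts. Igkc, the kappa constant gene, went from 2498 to 841 FPKM, 3.03-fold lower, beside the 2.89-fold of the kappa V segments. The 7 heavy constant genes summed to 1041 and 443 FPKM, 2.39-fold lower, beside the 2.10-fold of the heavy V segments. Ighm, which encodes IgM, made up 55.5% and 49.7% of the heavy constant FPKM, with 577 and 220 FPKM. Igha, the gene of IgA, had 278 and 160 FPKM, 26.7% and 36.2%. Ighg2c had 49.8 and 8.45 FPKM, Ighg1 had 71.0 and 18.9 FPKM, and Ighg2b had 59.2 and 29.8 FPKM. Ighg3 had 4.93 and 5.26 FPKM, and Ighe had 0.639 and 0.152 FPKM. The 9 J and 18 D entries of the immunoglobulin loci were listed at 0 in both libraries. This does not show that J and D sequences were absent, since V segments and constant genes of the same transcripts had reads.

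Genes that mark plasma cells and B cells differed in how they went with the V segments. Jchain, which links IgM and IgA into polymers, had 78.8 FPKM in Foxf1fl/fl and 26.0 FPKM in αSMACreER;Foxf1-/-, and Mzb1, a chaperone of antibody assembly, had 13.3 and 6.25 FPKM. Of the 12 plasma cell genes on the list, 10 passed the filter, of which 3 were at least 1.5-fold lower (Jchain, Mzb1 and Fkbp11) and 1, Slamf7, was higher, and the list had a median of -0.03. Sdc1, also made by epithelial cells, had 60.1 and 60.9 FPKM. Tnfrsf17, the plasma cell receptor BCMA, was low with 0.400 FPKM and 0, and Derl3 had 1.41 and 0.589 FPKM. Neither of these passed the filter. Of 16 B cell genes, 13 passed, none was 1.5-fold lower and 1 was higher, Pax5 with 2.40 and 9.92 FPKM, and the list summed to 191 and 221 FPKM with a median of 0.26. Ms4a1, which encodes CD20, had 2.76 and 3.99 FPKM, and Cd79a, a signalling chain of the B cell receptor, had 24.6 and 24.0 FPKM.

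Genes for making V regions varied in level. Rag1, of the recombinase, had 0.0154 and 0.0988 FPKM and Rag2 was listed at 0 in both, whereas Dntt, which adds bases to the joints, had 2.84 and 3.90 FPKM. Bcl6, a germinal centre regulator that other cells also express, had 16.0 and 20.7 FPKM, and Ung, which repairs uracil in DNA, had 4.44 and 4.99 FPKM. The octamer factors that bind V promoters were not lower, with 0.509 and 1.56 FPKM for Pou2f1, 5.43 and 12.7 FPKM for Pou2f2, and 6.13 and 7.88 FPKM for their partner Pou2af1.

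The cells held RNA of several types, and values of other lists moved with the V segments or did not. All 5 hepatocyte genes on the list were at least 1.5-fold lower in αSMACreER;Foxf1-/-, with a summed 3027 and 1128 FPKM and a median of -1.74, a ratio of sums of 2.73-fold that was near the 2.53-fold of the V segments. Alb, albumin, had 2292 and 912 FPKM, Ttr had 322 and 86.8 FPKM, and Apoa1 had 261 and 84.2 FPKM. The part of this difference in the V segment result was not tested. T cell receptor V segments, of which 132 were in the table, went the other way by sum, from 66.0 to 102 FPKM, with 7 of 21 past the filter higher and 6 lower. Trbv13-1 alone had 2.94 and 26.1 FPKM, and the sums without it, an alternative added after seeing the data, were 63.1 and 75.6 FPKM. The T cell genes Cd3e, Cd3d and Cd3g had 8.02 and 9.88 FPKM, 7.90 and 8.96 FPKM, and 39.7 and 25.5 FPKM, and the list of 8 summed to 114 and 111 FPKM.

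Myeloid, dendritic and stromal markers differed by less than 1.5-fold by sum. The 6 Kupffer cell and macrophage genes summed to 4809 and 3956 FPKM. Clec4f had 1117 and 753 FPKM, lower past 1.5-fold, Adgre1 had 162 and 165 FPKM, and Cd68 had 646 and 679 FPKM. The 5 plasmacytoid dendritic cell genes summed to 73.0 and 82.2 FPKM, with 22.4 and 24.9 FPKM for Siglech, 16.5 and 23.8 FPKM for Ccr9, and 17.8 and 22.6 FPKM for Tcf4, while the last 2 of the list were lower, Cox6a2 with 16.0 and 10.8 FPKM, past 1.5-fold, and Ptcra with 0.272 and 0.205 FPKM. Against the label of stromal cells, the stellate cell and myofibroblast genes were low, with 1.70 and 3.29 FPKM for Des, 7.77 and 5.65 FPKM for Acta2, 1.03 and 1.43 FPKM for Pdgfrb and 0.0778 and 0.111 FPKM for Lrat. Of these, Des was higher past 1.5-fold. Col1a1 had 70.2 and 103 FPKM, most of the summed 80.7 and 113 FPKM of this list.

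**Figure D5:**
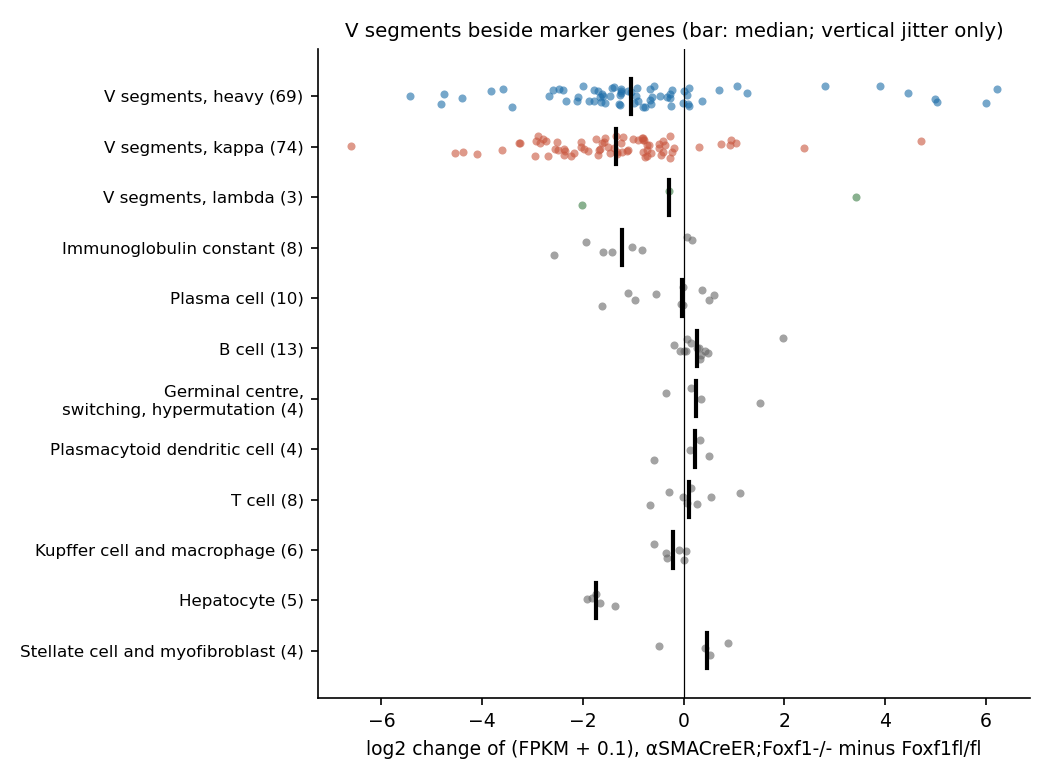
Log2 change of FPKM + 0.1, αSMACreER;Foxf1-/- minus Foxf1fl/fl (x), for each gene with a mean of at least 1 FPKM in the 3 V segment loci and in the constant and marker lists (rows, number of genes in brackets); black bars are medians and vertical scatter within a row has no meaning. The kappa and heavy V segments, the constant genes and the hepatocyte genes have medians from -1.74 to -1.05, and the B cell genes have one of 0.26.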

How the data were processed

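RNA-seq of adherent liver cells was analysed with 1 pooled library per genotype, sequenced as 75-base single-end reads. The authors aligned reads with TopHat and made the deposited FPKM values per Ensembl gene with Cufflinks; the submitters' processing notes name mm10, and versions are not given in the sources used here. Deposited FPKM are normalised to transcript length and library size, and how reads that fit several segments were shared is not stated. Mapped read totals were not analysed here, so depth was estimated from low FPKM as described in the report.

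Members were matched by gene ID to GENCODE M21 (203 of its 218 V genes), and the analysis used Python 3.11.15, pandas 2.3.3, numpy 2.4.6, scipy 1.17.1 and Biopython 1.88. For a repeated symbol the entry with the highest mean was kept, and 3 entries with a status other than OK were left out. The genes passing a mean of 1 FPKM formed the background. Fold calls used log2(FPKM + 0.1) after median-ratio scaling and the 1.5-fold threshold of the study's methods, without its false discovery rate, which needs counts. Estimated reads assumed 200-base fragments. Named genes were the first 5 heavy and kappa segments of each library, all lambda segments, the 5 largest rises and falls, the constant genes, Jchain and the first 3 genes of each marker list, of which some are not reported here, with a few others said to be chosen on their values or shown as context. The members and lists were chosen with earlier results of these data known. The fold calls and the read estimate were run on simulated data with 3-fold changes in genes of at least 5 FPKM. The simulated segments had 1 length and no reads shared between segments. These simulations therefore cannot show how well 1.5-fold calls near 1 FPKM or the read estimates of similar segments hold. Alternatives changed scaling, pseudocount, filter, threshold, fragment length and the merging of similar segments, and 3 were added after seeing the data. Promoters, recombination signals and protein sequences were not analysed here.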

Additional observations from a re-analysis of the deposited data

Results flagged for a closer look

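Igkv11-106, which GENCODE M21 classes as a variable pseudogene and which is therefore no member, had 13.7 FPKM in Foxf1fl/fl and 9.52 FPKM in αSMACreER;Foxf1-/-. It drew attention because both values lie above the 3 reads that a count of 0 allows, in an entry outside the main comparison. Of 10 variable pseudogene entries, it was the only one above that limit in either library.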

How the results depend on the processing

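No paired analysis was possible because the comparison rests on a single pooled library per arm. Of 110 values recomputed under other settings for 19 results, 94 kept their direction and their place, 15 counts, shares or effective numbers moved and 1 reversed. Summed V FPKM stayed lower under each scaling, with a log2 ratio of -1.31 as deposited, -1.14 at equal FPKM sums, which moved the median of all genes to 0.21, and -1.30 with upper-quartile scaling. Leaving out Iglv1 and Igkv1-110 turned the lambda ratio to 0.28. At a mean of at least 5 FPKM, 2 of 74 members were higher and 61 lower, and with about 10 reads in 1 library, an alternative added after seeing the data, 6 of 87 were higher and 71 lower, so most of the rises rest on few reads. Grouping by family gave a top share of 64.2% and 52.3% and an effective number of 4.20 and 5.86 for heavy, and 17.0% and 26.1% with 11.4 and 10.9 for kappa, in Foxf1fl/fl and αSMACreER;Foxf1-/-. Members with about 10 reads gave effective numbers of 27.5 and 29.8 for heavy. Merging segments at least 97% identical raised the top kappa share to 11.2% and 17.6%. Intervals cover counting error of estimated reads only, hold no biological variation, and those of segments under about 10 reads are very wide.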
